A study of Caenorhabditis elegans with 11 samples.

Results

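The linc genes of Caenorhabditis elegans are the genes with the WormBase name linc followed by a number, and they are annotated as sources of long intergenic noncoding RNA. Choosing by name gave 170 linc genes among the 46904 gene rows of each count table, and all 170 had a row in both tables. The RefSeq annotation of WBcel235 held all 170 and classed 169 of them as long noncoding RNA. Their gene spans ran from 101 to 6035 bases with a median of 741 bases, and they lay on all 6 chromosomes, with 22 on I, 34 on II, 22 on III, 26 on IV, 33 on V and 33 on X.

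Long intergenic noncoding RNAs are transcripts made between protein-coding genes that do not encode a recognised protein. In the worm germline, RNA-dependent RNA polymerases copy many transcripts into short antisense RNAs, which load onto Argonaute proteins, and a transcript need not encode a protein to serve as a template. A count of antisense small RNA over a linc gene therefore measures a different molecule from a read of the long RNA itself. No role is given here for any single linc gene, because the sources used here annotate none.

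RNA came from gonads of adult worms on day 1 of adulthood. The wild-type group was strain N2, and the mutant group was strain RB950 with the cup-4 deletion allele ok837. Coelomocytes, which take up fluid from the body cavity, are the cells for whose endocytosis cup-4 is known. The allele was carried by the whole animal and not by the gonad alone, and the mutant group is a single strain. Antisense small RNA was counted in 3 libraries of each genotype. The longer RNA was counted in replicates 2 and 3 of wild type and in 3 replicates of cup-4. The labels call the second kind mRNA whereas the design text calls it total RNA, and selection of polyadenylated RNA is not given in the sources used here, so the values below are called mRNA-library reads.

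Gene counts summed to between 14858199 and 39310540 in the small RNA libraries and to between 21290140 and 29559542 in the mRNA libraries. CPM, a gene's counts relative to the TMM-scaled size of its library, therefore rest on at least 14858199 gene counts in every library. The deleted gene cup-4 had 117 and 85 counts in the wild-type mRNA libraries, against 23, 37 and 20 counts in the mutant ones. Defining germline and oocyte genes were present, with none of the 8 at 0 in either assay and a summed mRNA level of 7217 to 14512 CPM in wild type and 8853 to 14064 CPM in cup-4. Markers of other tissues were present too. The mRNA of 8 intestine markers summed to 2658.5 and 3257 CPM in the wild-type libraries, against 14990.0 to 82549 CPM in the mutant ones, highest in cup-4 replicate 1, with 8 of 8 higher and 0 past the threshold. The 8 muscle and sheath markers summed to 1898 to 3248 CPM and to 3582 to 8351 CPM, also with 8 of 8 higher and 0 past the threshold. Summed mRNA levels of sperm, neuron, coelomocyte and hypodermis markers overlapped between the genotypes. Higher in cup-4 were 7 of 8, 3 of 6, 2 of 4 and 1 of 1 tested markers of these lists. Of all 12861 genes tested in mRNA, 59.4% were higher in cup-4 and 0 passed the threshold, so the test called nothing there. In bulk gonads, fewer cells of a type cannot be told apart from less RNA per cell.

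At a minimum of 1 CPM, most linc genes carried neither kind of RNA, and the rest mostly carried antisense small RNA alone. A gene was counted as carrying a kind of RNA where it reached 1 CPM in every library of a genotype. In wild type, 37 of the 170 linc genes, or 21.8%, carried antisense small RNA and 5, or 2.94%, carried mRNA-library reads. Of these, 4 carried both (linc-6, linc-7, linc-11 and linc-63), 33 carried small RNA only, 1 carried mRNA-library reads only (linc-129) and 132 carried neither. In both assays, 60 linc genes had at most 3 counts in every library, and 11 had 0 counts in all 11 libraries.

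Over all 46904 rows, 21.2% carried antisense small RNA in wild type and 75.1% carried neither kind, close to the linc shares of 21.8% and 77.65%. The other shares were not close. Both kinds were carried by 15.2% of all rows against 2.35% of linc genes, and small RNA only by 5.99% against 19.4%. Of all rows 18.9% carried mRNA-library reads, against 2.94% of linc genes. The 19825 rows matched to protein-coding genes had other shares. Of these, 34.8% carried both kinds of RNA in wild type, 9.21% small RNA only, 8.55% mRNA-library reads only and 47.4% neither. Among protein-coding genes with antisense small RNA 79.1% also carried mRNA-library reads, whereas 10.8% of the 37 linc genes did. The share in the other direction was close, since 80.3% of protein-coding genes with mRNA-library reads and 4 of 5 such linc genes carried small RNA. These shares are descriptions with no test. Of the 57 anr genes, a class of antisense RNA genes also outside the protein-coding set, 7 carried small RNA only in wild type, led by anr-35 at 955 CPM, and the other 50 carried neither.

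How many linc genes carried both depended on the minimum. With at least 10 counts in every wild-type library of both assays there were 14, namely linc-4, linc-6, linc-7, linc-8, linc-11, linc-15, linc-21, linc-22, linc-29, linc-44, linc-45, linc-46, linc-63 and linc-91. With 1 CPM in the mean of the wild-type libraries there were 8, because linc-8, linc-22, linc-29 and linc-91 averaged 1.09 to 1.33 CPM of mRNA, each with 1 of the 2 libraries under 1 CPM. Without wild-type mRNA replicate 3 the count at 1 CPM was 7. The other classes depended on the minimum too. At 0.1 CPM in every wild-type library, 28 linc genes carried both, 37 small RNA only, 11 mRNA-library reads only and 94 neither.

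**Figure D1:**
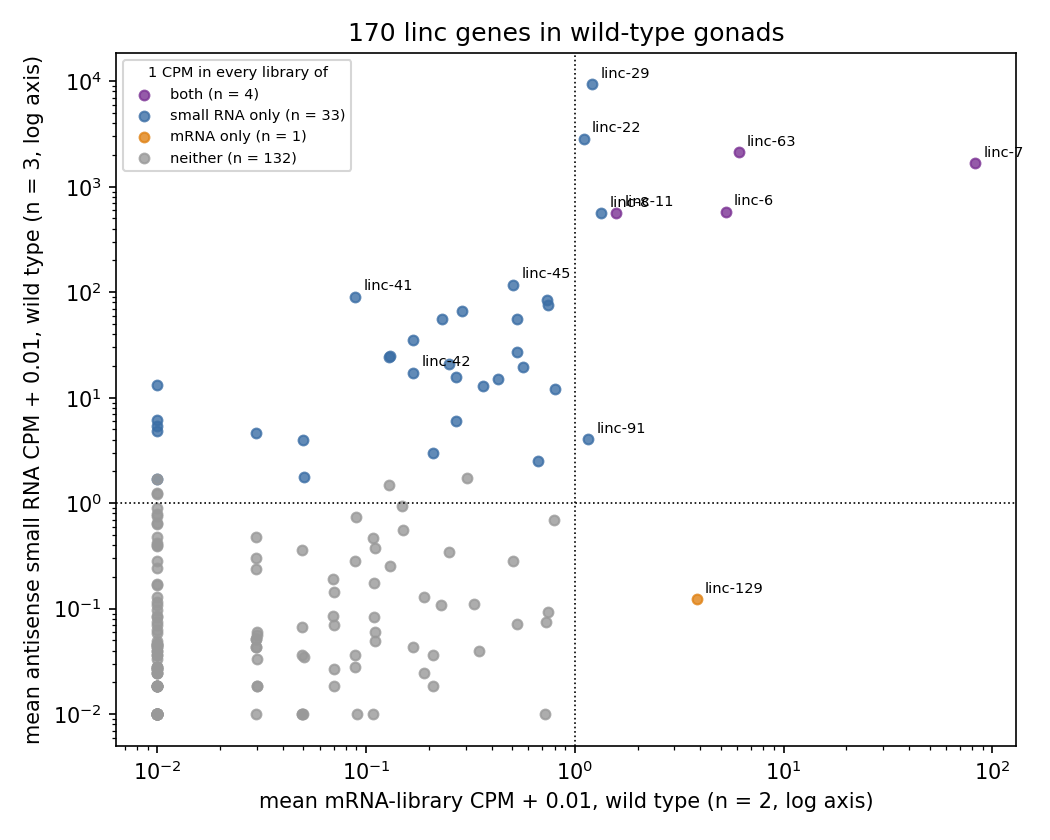
Mean antisense small RNA (vertical axis, CPM + 0.01, 3 libraries) against mean mRNA-library reads (horizontal axis, CPM + 0.01, 2 libraries) of the 170 linc genes in wild type, both on log axes, coloured by the kinds of RNA that reached 1 CPM in every library, with dotted lines at 1 CPM. The points with much small RNA run up the left and middle of the plot, from linc-41 to linc-29, while linc-7 stands alone at the right and linc-129 alone at the lower right.

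Antisense small RNA was concentrated on few linc genes. Of all small RNA gene counts, the 170 genes held 1.78% ± 0.12 in the 3 wild-type libraries and 2.21% ± 0.11 in the 3 mutant libraries (mean ± SD). The 8 linc genes of highest mean wild-type level held 95.99% to 96.08% of the linc counts in the wild-type libraries. In the mutant libraries the same 8 held 93.99% to 95.59%. They were linc-29, linc-22, linc-63, linc-7, linc-6, linc-11, linc-8 and linc-45. The first 7 were also the 7 highest in each of the 6 libraries. Next came linc-45, except in wild-type replicate 3 (linc-44) and cup-4 replicate 1 (linc-16). Of mRNA gene counts the family held 0.0149% and 0.0106% in replicates 2 and 3 of wild type, against 0.00630%, 0.00756% and 0.00558% in the mutant libraries. Most of that came from linc-7, which gave 67.2% and 69.8% of the linc reads in the wild-type libraries but 44.04% to 61.0% in the mutant ones.

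The gene with the most antisense small RNA was linc-29 (WBGene00189951, chrIV:6354024-6357243 in ce11, no overlapping annotated gene). In replicates 1 to 3 its small RNA stood at 8641, 9272 and 10013 CPM for wild type, and at 7668, 8874 and 8346 CPM for cup-4. Only 5 of the 46904 rows had a higher mean in wild type. The genotypes overlapped, and cup-4 over wild type gave a log2 ratio of -0.17 with SE 0.10 (edgeR, adjusted p 0.361). Reads in the mRNA libraries numbered 21 and 39 for wild type against 19, 12 and 16 for cup-4, which is 1.20 ± 0.53 CPM (SD, n = 2) against 0.686 ± 0.305 CPM (SD, n = 3).

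Per kilobase of gene span, which includes any introns, the order of small RNA levels changed. The highest wild-type levels per length were those of linc-63 at 3394, linc-6 at 3341, linc-29 at 2891 and linc-7 at 1486 CPM per kb. These were places 42, 43, 50 and 85 among the 43716 rows with an annotated length. The same measure of mRNA-library reads put linc-7 at 73.3 CPM per kb (place 1025), linc-6 at 30.3 (place 2352) and linc-63 at 9.71 (place 4350), and linc-29 at 0.373 (place 10385). The 174-base span of linc-6 overlaps the noncoding RNA gene F52D2.14 and the pseudogene fbxa-46. In wild type F52D2.14 averaged 14.4 CPM of small RNA and 3.31 CPM of mRNA, against 581 and 5.27 CPM for linc-6. The part of these overlaps in the linc-6 values was not tested.

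For the 4 linc genes that carried both kinds of RNA, the mean small RNA CPM divided by the mean mRNA CPM in wild type was 20.3 for linc-7, 110 for linc-6, 350 for linc-63 and 362 for linc-11. The median of this ratio was 0.912 over the 6904 protein-coding genes that carried both. Since the assays were sequenced separately, the ratio ranks genes and does not count molecules, and among the 7148 rows with both kinds the ranks were 379, 118, 38 and 36. The reverse case was linc-129 (WBGene00219601, chrIII:10817263-10821245), with 2 to 4 small RNA counts in every library against mRNA-library counts of 74 and 117 (wild type) or 59, 108 and 110 (cup-4). It overlaps the noncoding RNA gene K11D9.8, which averaged 0.14 CPM of mRNA in wild type. The mRNA level of linc-129 averaged 3.82 CPM with SD 1.29 over 2 wild-type libraries, against 3.74 CPM with SD 0.87 over 3 mutant libraries. Its log2 ratio was -0.030 with SE 0.43 (edgeR, adjusted p 0.982), and 0.11 with the replicate block.

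Position and length were compared across the classes. The 37 linc genes with small RNA in wild type had a median span of 799 bases, and the 132 with neither kind a median of 706 bases, each within a wide range (163 to 4598 and 101 to 6035 bases). Spans of protein-coding genes overlapped 3 of the 37, or 8.11%, and 31 of the 132, or 23.5%. An annotated piRNA gene, a source of short germline RNAs, lay within the span of 6 of the 37 and 5 of the 132. The table used for positions gives no strand, so it does not say which of these overlaps are antisense. Reads ambiguous between genes were set aside in the deposited counts, and their part in these shares was not tested.

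To ask which linc genes differed in antisense small RNA between the genotypes, all 13336 genes that passed a filter on low counts were tested together. Higher antisense small RNA in cup-4 was found for linc-22, linc-41 and linc-45, and lower antisense small RNA for linc-42. These were 4 of the 58 linc genes tested, or 6.90%, at an adjusted p under 0.05 in edgeR's quasi-likelihood test, against 1.12% of all genes tested. By an unadjusted p under 0.05, 19 of the 58 passed, against 22.8% of all genes. DESeq2 called 13 of the 58, against 9.43% of all genes. The other 112 linc genes were not tested because of low counts. By direction, 3 linc genes against 0.78% of all genes were called higher, and 1 against 0.337% was called lower. Fitted with the replicate block, so that libraries of 1 batch are compared, 10 linc genes were called, 9 higher and 1 lower, against 1.97% of all genes called and 1.42% called higher. Without cup-4 replicate 2 the count was 0, with 13 genes called in all, 17 linc genes at an unadjusted p under 0.05 and a lowest adjusted p of 0.062 among linc genes.

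The most abundant of the 4 was linc-22 (WBGene00219699, chrX:9069138-9073735). Wild-type replicates 1 to 3 held 2806, 3265 and 2483 CPM of its antisense small RNA, and cup-4 replicates 1 to 3 held 5306, 5155 and 5652 CPM. Every cup-4 library lay above every wild-type library. From 2851 ± 393 to 5371 ± 255 CPM (SD, n = 3 each), this was a 1.88-fold rise, or 0.91 on the log2 scale with SE 0.12 (edgeR, adjusted p 0.0192). When cup-4 replicate 1, 2 or 3 was left out, the increase did not pass, and its log2 ratio was 0.88 to 0.94 with adjusted p 0.0698 to 0.106. Its span holds the small nucleolar RNA gene F47E1.19 and 2 piRNA genes. No antisense small RNA was counted for F47E1.19, and the nearest protein-coding gene, F47E1.4, 2476 bases away, averaged 0 CPM in wild type and 0.0651 CPM in cup-4.

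The lowest adjusted p in the family was that of linc-45 (WBGene00219661, chrIII:3151809-3152607). Wild-type libraries held 115, 130.1 and 109.9 CPM of its small RNA, and mutant libraries 249, 233 and 226 CPM. Again the genotypes did not overlap. Its rise was 1.00 on the log2 scale with SE 0.090 (edgeR, adjusted p 0.00813), and the gene passed in 11 of 12 alternatives, the exception being the fit without cup-4 replicate 2 (adjusted p 0.0620). A second linc gene, linc-19, lies 457 bases away and had 39.5, 37.6 and 28.2 CPM of small RNA in wild type, against 75.3, 59.7 and 52.0 CPM in the mutant. This log2 ratio of 0.83, with SE 0.18, missed the threshold (edgeR, adjusted p 0.0778) and passed with the replicate block (adjusted p 0.0211). The nearest protein-coding gene of both, C44B11.6, had mean small RNA of 699 CPM in wild type against 1042 CPM in the mutant, a log2 ratio of 0.58 that also missed it (edgeR, adjusted p 0.0550).

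A second pair of neighbours lay on chromosome IV. Antisense small RNA of linc-41 (WBGene00219689, chrIV:4241224-4241765) stood at 94.1, 101.7 and 76.5 CPM in the wild-type libraries, against 226, 204 and 161 CPM in the mutant ones, with no overlap. On the log2 scale it rose by 1.12 with SE 0.15 (edgeR, adjusted p 0.0267), and linc-41 did not pass without cup-4 replicate 1, cup-4 replicate 2 or wild-type replicate 3 (adjusted p 0.0729, 0.148 and 0.0624). At a gap of 321 bases, linc-21 was at 61.0, 95.6 and 70.9 CPM for wild type, against 130.0, 153 and 144 CPM for cup-4. Here too no library of one genotype overlapped the other, yet the log2 ratio of 0.91, SE 0.17, did not pass (edgeR, adjusted p 0.0586). It passed with the replicate block (adjusted p 0.0223), under total counts and without wild-type replicate 1 or 2. The third linc gene of this stretch, linc-26, lies 2816 bases from linc-41 and had 1 small RNA count over the 6 libraries. The nearest protein-coding gene of linc-21 and linc-41 is the collagen gene col-34, which averaged 0.204 CPM of small RNA in wild type and 0.159 CPM in cup-4.

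The decrease was that of linc-42 (WBGene00219718, chrIII:2936109-2937002). Wild-type libraries held 21.8, 15.6 and 14.5 CPM of its small RNA but mutant libraries 3.27, 4.56 and 3.92 CPM, so that the lowest wild-type library stood well above the highest cup-4 library. It fell by 2.14 on the log2 scale with SE 0.22 (edgeR, adjusted p 0.0116), the largest in absolute size among the 58 linc genes tested, and the gene did not pass without cup-4 replicate 2 or 3 (adjusted p 0.0620 and 0.0592). R10F2.6, the nearest protein-coding gene at 38 bases, had mean small RNA of 10.2 CPM in wild type against 18.5 CPM in the mutant, a log2 ratio of 0.87 opposite in sign (edgeR, adjusted p 0.162). The next lowest p among lower linc genes was that of linc-44, with 70.1, 70.6 and 110.2 CPM of small RNA in wild type against 47.5, 40.1 and 40.1 CPM in the mutant. Its log2 ratio of -0.97, with SE 0.19, missed the threshold (edgeR, adjusted p 0.0686), though it passed in 5 of 12 alternatives, with adjusted p from 3.65e-15 to 0.269 over the 12. The log2 ratio of linc-30 was -0.20 with SE 0.10 (edgeR, adjusted p 0.280).

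**Figure D2:**
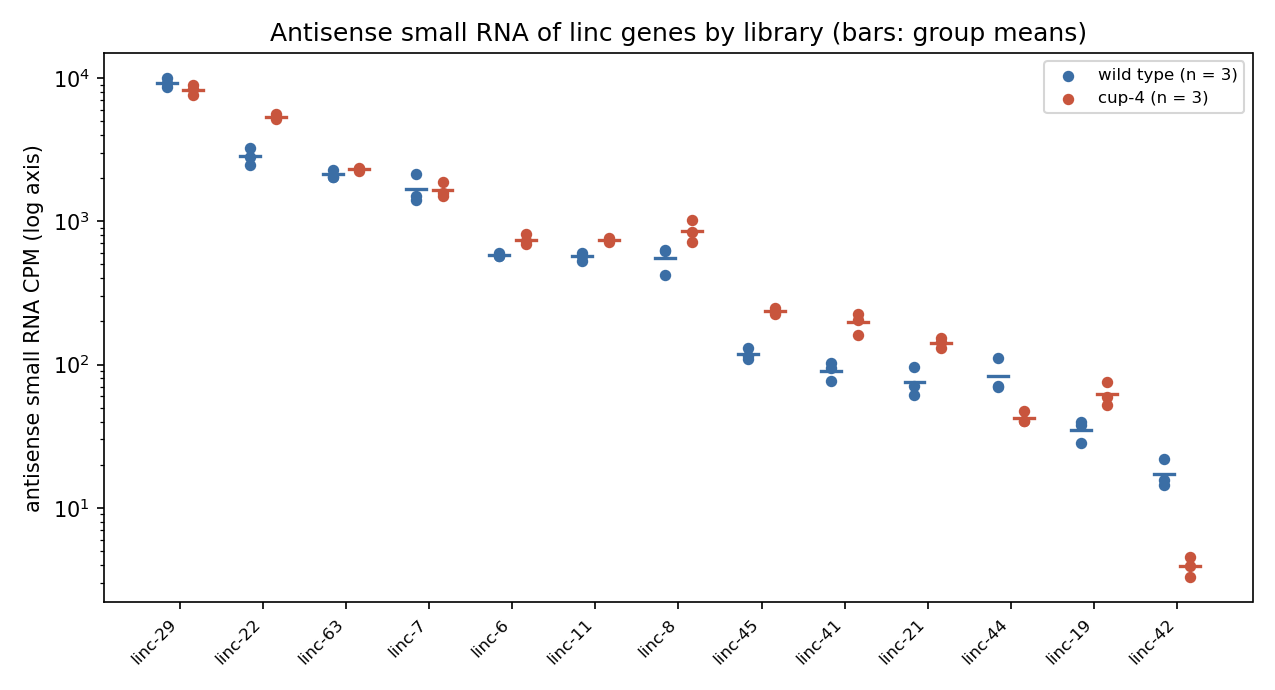
Antisense small RNA (CPM, log axis) of 13 linc genes in each of the 3 wild-type (blue) and 3 cup-4 (red) libraries, with bars at group means. The genotypes are separate for linc-22, linc-45, linc-41 and linc-42, among others, and overlap for linc-29, linc-63 and linc-7.

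The other highly targeted linc genes did not pass the threshold. Small RNA of linc-63 (WBGene00219725, chrI:3870642-3871267) stood at 2298, 2041 and 2036 CPM for wild type against 2241, 2356 and 2329.5 CPM for cup-4, a log2 ratio of 0.12 with SE 0.085 (edgeR, adjusted p 0.425). That of linc-7 (WBGene00219609, chrX:16002599-16003728) stood at 2128, 1407 and 1502 CPM against 1868, 1573 and 1510.3 CPM, a log2 ratio of -0.025 with SE 0.17 (edgeR, adjusted p 0.949). For both genes the genotypes overlapped, which does not show that the levels were equal. The log2 ratios of linc-6 (0.36, SE 0.086, edgeR adjusted p 0.0947), linc-11 (0.39, SE 0.082, adjusted p 0.0737) and linc-8 (0.62, SE 0.19, adjusted p 0.136) did not pass, although in each of the 3 genes every cup-4 library lay above every wild-type library. All 3 passed in DESeq2 and with no filter, and linc-8 also passed with the replicate block (edgeR, adjusted p 0.0446). Of 12 alternatives, linc-6 passed in 2, linc-11 in 2 and linc-8 in 3.

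Across the 58 tested linc genes the median log2 fold change in small RNA was 0.38, and 45 of 58, or 77.6%, were higher in cup-4, against a median of 0.0065 and 50.7% over all genes tested. At an unadjusted p under 0.05 there were 17 higher and 2 lower linc genes, against 11.7% higher and 11.1% lower of all genes. Genotypes did not overlap for 24 of the 58 linc genes, 21 higher and 3 lower, against 15.8% and 14.8% of all genes. Genes with few counts can enter the tested set through the genotype in which they are high, so these counts describe the 58 and not the family. With a mean of at least 50 counts, 38 linc genes were tested and their median was 0.46 against -0.0028 for all genes. Leaving out any 1 library gave medians of 0.37 to 0.45, over 57 to 60 linc genes tested, against 0.0024 to 0.025 over all genes. The 43 tested linc genes not singled out by level or test ranged from -0.99 to 1.69, with 35 higher and 8 lower and adjusted p-values of 0.0550 to 0.981.

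**Figure D3:**
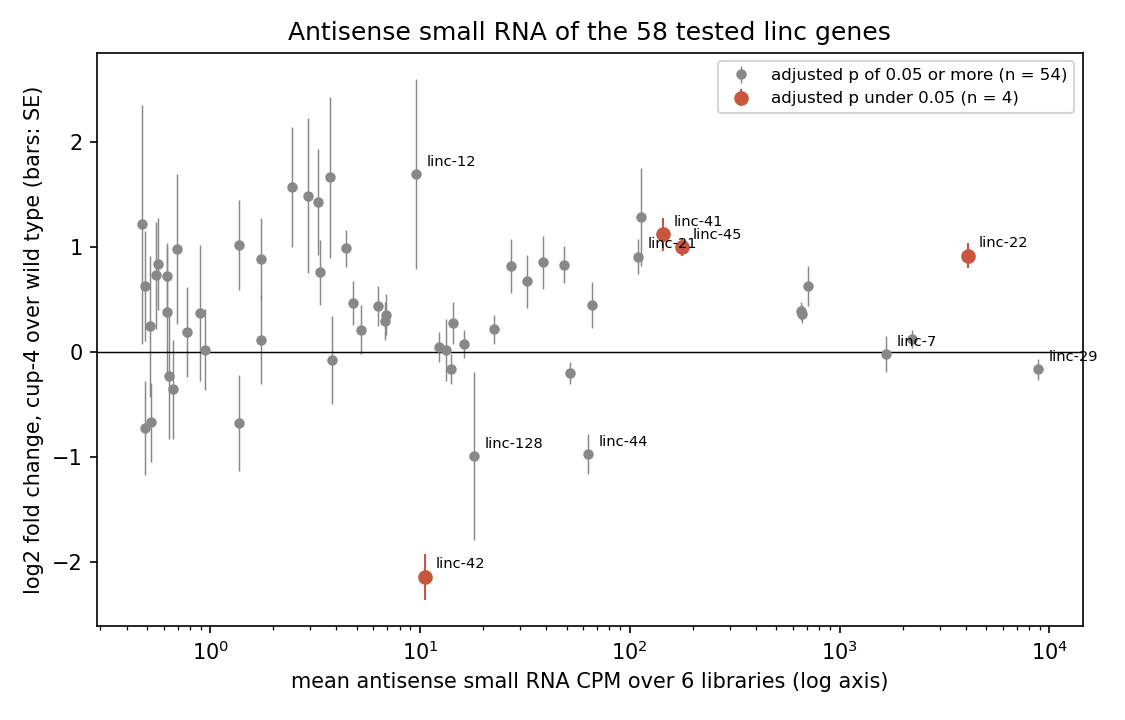
Log2 fold change of antisense small RNA, cup-4 over wild type (vertical axis, bars are SE), against the mean CPM over 6 libraries (horizontal axis, log scale) for the 58 linc genes tested. The 4 genes with an adjusted p under 0.05 are in red, linc-22, linc-41 and linc-45 above 0 and linc-42 below, and 45 of the 58 points lie above 0.

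Values of some other tissues moved in the same libraries. In small RNA, the 8 intestine markers ranged in sum from 14.3 to 22.6 CPM over the wild-type libraries and from 27.4 to 52.2 CPM over the mutant ones, with 3 of 3 tested markers higher, and the 8 sperm markers to 3.51 to 10.3 and 11.3 to 17.7 CPM, with 8 of 8 higher. None of these intestine and sperm markers passed the threshold. The 8 germline and oocyte markers summed to 1541.5 to 1687 CPM of small RNA over the wild-type libraries, against 1368 to 1449.5 CPM over the mutant ones, with 1 of 8 higher and 1 past the threshold. The 6 neuron markers summed to 48.9 to 53.3 CPM against 57.8 to 63.9 CPM, with 5 of 6 higher and 0 past the threshold. Of all genes tested in small RNA, 50.7% were higher in cup-4 and 1.12% passed the threshold. The part of these markers in the linc values was not tested. Single libraries stood apart for linc-16 and linc-128: linc-16 was at 287 CPM in cup-4 replicate 1 against 99.8 and 95.1 CPM in the other cup-4 libraries, and linc-128 at 55.8 CPM in wild-type replicate 3 against 8.11 and 8.5 CPM in the other wild-type libraries.

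The classes shifted little with genotype. In cup-4, 4 linc genes carried both kinds of RNA, 38 small RNA only, 1 mRNA-library reads only and 127 neither. Over all 46904 rows the cup-4 shares of these classes were 15.9%, 7.09%, 4.14% and 72.9%. Small RNA was carried by 21.2% of all rows in wild type and by 22.95% in cup-4, a rise seen in linc genes too (21.8% and 24.7%). In all 7 linc genes were in another class than in wild type. Small RNA reached 1 CPM in every cup-4 library, but not in every wild-type library, for linc-18, linc-36, linc-66, linc-68 and linc-106, and no linc gene lost it. The 3 of these with the largest log2 fold changes did not pass the threshold: linc-66 (1.66, SE 0.76, edgeR adjusted p 0.251), linc-68 (1.57, SE 0.57, adjusted p 0.175) and linc-36 (1.49, SE 0.74, adjusted p 0.277). Small RNA of linc-66 stood at 0.599, 3.99 and 0.577 CPM for wild type against 7.94, 5.27 and 3.96 CPM for cup-4, so wild-type replicate 2 reached the level of the lowest cup-4 library. Without wild-type replicate 2 its log2 fold change was 3.26 (adjusted p 0.0239). In mRNA, linc-91 was above the minimum in every cup-4 library and linc-11 below it, neither past the threshold.

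To ask which linc genes differed in mRNA, 12861 genes were tested, of which 27 were linc genes. At an adjusted p under 0.05, 0 linc genes were called in edgeR's quasi-likelihood test, against 0 of all genes tested, so the test called nothing in this assay. At an unadjusted p under 0.05 there were 4 linc genes, all 4 lower in cup-4, against 6.35% lower and 10.8% higher of all genes. DESeq2 called 2, linc-7 and linc-63, both lower, against 8.29% of all genes. With the replicate block the count was again 0, against 1.55% of all genes called and 0.0544% called lower. Genotypes did not overlap for 10 of the 27, 3 higher and 7 lower, against 20.1% and 17.8% of all genes. Genes with few counts can enter the 27 through the genotype in which they are high, so these counts describe the 27 alone.

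For linc-7, mRNA-library reads reached 87.8 and 77.9 CPM in replicates 2 and 3 of wild type, against 30.8, 43.2 and 29.6 CPM in the 3 mutant libraries. All 3 cup-4 libraries lay below both wild-type libraries. The log2 ratio of -1.26, with SE 0.23, did not pass (edgeR, adjusted p 0.122), and the adjusted p ranged from 0.000910 in DESeq2 to 0.299 over the alternatives. In the small RNA libraries of the same gene the difference was -0.025 on the log2 scale. For linc-63 the mRNA-library level was 6.61 and 5.54 CPM against 1.56, 1.87 and 1.80 CPM in the mutant, again without overlap. Its log2 ratio was -1.79 with SE 0.38 (adjusted p 0.137 in edgeR and 0.00169 in DESeq2). That of linc-11 was 1.81 and 1.33 CPM against 0.574, 0.412 and 0.687 CPM (log2 fold change -1.49, SE 0.59, adjusted p 0.274).

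Of the remaining linc genes with the highest mRNA level, linc-6 was at 6.45 and 4.09 CPM against 2.87, 4.44 and 1.98 CPM in the mutant (log2 fold change -0.76, SE 0.48, edgeR adjusted p 0.478). The genotypes overlapped for it, as they did for linc-8 (-0.48, SE 0.85), linc-22 (0.14, SE 0.67) and linc-29 (-0.82, SE 0.70), whose adjusted p-values were 0.823, 0.943 and 0.610. The level of linc-91 was 1.53 and 0.769 CPM against 3.50, 1.87 and 1.59 CPM in the mutant (log2 fold change 1.00, SE 0.63, adjusted p 0.472), and its nearest protein-coding gene chd-7 had a log2 ratio of 1.01 (adjusted p 0.332). For linc-45 the counts were 14 and 11 against 5, 13 and 2 in the mutant (-0.95, SE 0.91, adjusted p 0.657). The other 17 tested linc genes had at most 43 counts in any library and adjusted p-values of 0.189 to 0.981.

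**Figure D4:**
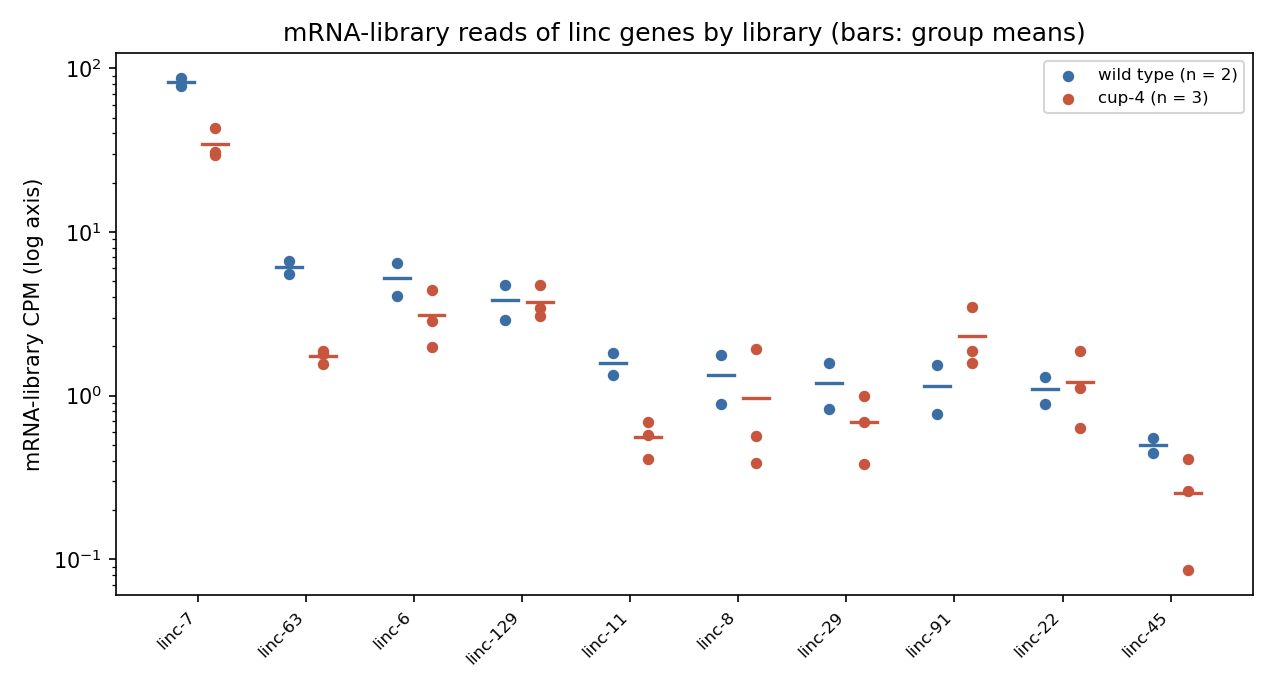
mRNA-library reads (CPM, log axis) of 10 linc genes in each of the 2 wild-type (blue) and 3 cup-4 (red) libraries, with bars at group means. The cup-4 libraries lie below both wild-type libraries for linc-7, linc-63, linc-11 and linc-45, lie above both for linc-91, and overlap with them for linc-6, linc-129, linc-8, linc-29 and linc-22.

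The median log2 fold change of the 27 linc genes in mRNA was -0.42, with 9 of 27, or 33.3%, higher in cup-4, against 0.16 and 59.4% over all genes tested. As in small RNA, genes with few counts can enter the tested set through the genotype in which they are high. These values therefore describe the 27 and not the family. With a mean of at least 50 counts, 4 linc genes were tested, with a median of -1.065 against 0.052 for all genes. The median of the tested linc genes changed when 1 library was left out, but the genes tested changed with it. Without cup-4 replicate 1 it was -0.94 (26 linc genes tested), without cup-4 replicate 2 -0.052 (26) and without cup-4 replicate 3 -0.23 (27). Without wild-type replicate 2 it was 0.32 and without wild-type replicate 3 -0.37, with 34 linc genes tested in each. With the replicate block it was -0.90 over the 27. Medians over all genes tested were -0.027, 0.13 and 0.18 without cup-4 replicates 1, 2 and 3 in turn. They were 0.13 and 0.12 without wild-type replicates 2 and 3 in turn, and 0.10 with the block. Batch 1 of mRNA holds no wild-type library, so cup-4 replicate 1 does not enter the block's comparison of genotypes. The higher intestine and muscle marker sums given above were in the same cup-4 mRNA libraries, and their part in the linc values was not tested.

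There were 19 linc genes tested in both assays. Of these, 9, or 47.4%, had higher small RNA and lower mRNA-library reads in cup-4, against 16.1% of the 10163 genes tested in both, 5 were higher in both, 4 lower in both and 1 lower in small RNA alone. Most of the 19 were higher in small RNA and most were lower in mRNA, and a link between the assays was not tested. Since genes with few counts can enter either tested set through the genotype in which they are high, these counts describe the 19 alone. No linc gene passed the threshold in both assays. Across the 19 genes, which share libraries and depth, wild-type levels of small RNA and mRNA-library reads had a Spearman rho of 0.61, and it was 0.56 across all genes tested in both.

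**Figure D5:**
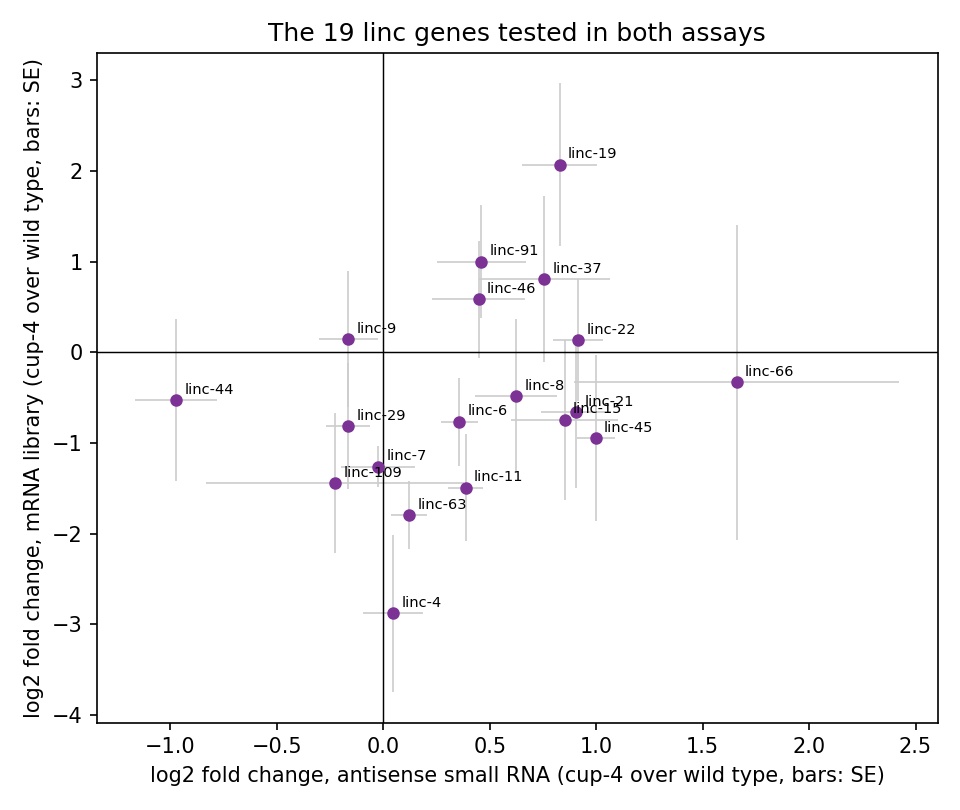
Log2 fold change of mRNA-library reads (vertical axis) against that of antisense small RNA (horizontal axis), cup-4 over wild type with SE bars, for the 19 linc genes tested in both assays. Points in the lower right, 9 of 19, had higher small RNA and lower mRNA-library reads, and linc-7 and linc-63 sit low with small RNA values near 0.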

How the data were processed

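The authors deposited whole-number counts per gene and library for each assay, neither normalized nor pooled. The small RNA counts are of antisense reads, per the labels. Processing notes of the submitters name FastQC, cutadapt, HISAT2, HTSeq, DESeq2 and the build ce11, without roles or versions. The annotation and the use of strand for mRNA are not given in the sources used here. Reads from the opposite strand of a linc gene therefore cannot be told apart from its own in mRNA. Reads set aside as ambiguous between genes made up 0.27% to 0.37% in the mRNA libraries and 0.23% to 0.26% in the small RNA libraries. How many of them lay over linc genes is not known. The 5 summary rows of each table (44.0% to 49.1% in the small RNA libraries, 13.4% to 23.8% in the others) entered neither library sizes nor tests.

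Symbols were found for 44017 of the 46904 identifiers. Positions and spans came from RefSeq WBcel235, the assembly that ce11 denotes, found for 43716 rows. Counts were tested in R 4.3.3 with edgeR 4.0.16 (TMM, filterByExpr, robust quasi-likelihood fit and test), genotype as the single term, and Benjamini-Hochberg adjustment over all genes tested. The threshold was an adjusted p of 0.05. SE was taken as |log2 fold change| over the root of F. The test was tried on simulated data.

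Named are linc-45, called genes, the 8 of highest wild-type level per assay, the 3 of lowest p per assay and direction among those averaging 1 CPM or more, and up to 4 that changed class. Others (linc-4, linc-12, linc-15, linc-16, linc-18, linc-19, linc-21, linc-26, linc-46, linc-61, linc-75, linc-106, linc-128) were named after their values were seen. The members, lists and alternatives were chosen with earlier results of these data known. Alternatives were the replicate block, DESeq2 1.42.0, RLE size factors, total counts, a filter of 50 on the mean count or none, batches 2 and 3 only (mRNA), leaving out each replicate, and other minimums of detection. Batch 1 of mRNA holds only cup-4 replicate 1, so the fit of batches 2 and 3 only is the fit without that library. Replicate numbers equal the batch in the labels, so they pair libraries. Within batches 1, 2 and 3, deviations from the group means had r of 0.081, 0.092 and 0.15 in small RNA, and within batches 2 and 3 of -0.13 and 0.49 in mRNA, where 2 wild-type deviations mirror each other. Every replicate pair differed by more than sampling noise (lowest chi-square/df 17.8). Whether replicates were separate cultures is stated only as biological replicates in the design text.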

Additional observations from a re-analysis of the deposited data

How the results depend on the processing

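Of the linc genes called in antisense small RNA, 4 in the reported fit, there were 10 with the replicate block, 13 in DESeq2, 7 under total counts, 17 with no filter and 0 to 7 when 1 library was left out. Of all genes tested, 1.12% were called in the reported fit, 1.97% with the block and 9.43% in DESeq2. It was 1.64% under total counts, 5.2% with no filter and 0.0935% to 2.95% without 1 library. With no filter 150 linc genes were tested, against 58 in the reported fit. The 4 were among those called with the block, in DESeq2, under total counts and with no filter. Under total counts the median of all genes moved from 0.0065 to 0.12. The 6 linc genes added by the block were linc-8, linc-12, linc-15, linc-19, linc-21 and linc-61. In mRNA the count was 2 in DESeq2, 1 with no filter (linc-7) and 0 in each fit without 1 cup-4 library and with the block. Of all genes tested in mRNA, 8.29% were called in DESeq2, 1.49% with no filter and 1.55% with the block. In each fit without 1 cup-4 library it was 0%. With no filter 118 linc genes were tested in mRNA. The number of linc genes with both kinds of RNA in wild type, 4 as reported, was 9 at a minimum of 0.5 CPM, 28 at 0.1 CPM, 14 at 10 counts, 8 at 1 CPM in the mean and 4 to 7 without 1 library. The cause of these differences was not tested, apart from the lower minimums, which admit more genes by construction.

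Signs turned for values near 0. In small RNA, linc-7 was 0.079 under total counts, 0.033 with a mean count of at least 50 and -0.14 to 0.18 without 1 library. In mRNA, linc-22 was -0.35 with the replicate block, -0.019 under total counts, -0.40 in batches 2 and 3 only and -0.40 to 0.43 without 1 library. There linc-129 was 0.11 with the block, 0.017 in batches 2 and 3 only and -0.34 to 0.31 without 1 library, and linc-8 -1.55 to 0.093 without 1 library. With 2 wild-type mRNA libraries, leaving out 1 assumes that the lone library varies like the cup-4 group. At the depth of these libraries, 112 of 170 linc genes in small RNA and 143 in mRNA were below the count filter and were not tested.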

Other observations

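Other named long noncoding RNA genes were measured in the same libraries. The mRNA-library level of tts-1 was 6.23 ± 3.21 CPM (SD, n = 2) in wild type and 13.6 ± 5.0 CPM (SD, n = 3) in cup-4, a log2 ratio of 1.12 with SE 0.48 (edgeR, adjusted p 0.306), and its antisense small RNA was under 0.3 CPM on average in both genotypes. For lep-5, the mRNA-library level was 5.25 ± 3.48 and 5.51 ± 0.53 CPM and its small RNA 0.685 ± 0.079 and 1.55 ± 0.12 CPM (SD, n = 3 each). This log2 ratio of 1.17, with SE 0.29, did not pass (edgeR, adjusted p 0.0976). The gene rncs-1 had 0.868 ± 0.400 and 1.601 ± 0.281 CPM of small RNA (0.84, SE 0.39, adjusted p 0.251) and too few mRNA-library reads for a test. Of the 57 anr genes, 18 were tested in small RNA, with a median log2 fold change of 0.20. In edgeR 0 passed the threshold and 4 had an unadjusted p under 0.05, against 1.12% and 22.8% of all genes tested. In mRNA 5 were tested. There 0 passed the threshold and 1 had an unadjusted p under 0.05, against 0 and 17.2% of all genes tested.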
